A study of Mus musculus with 6 samples.

Results

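De novo fatty acid synthesis turns carbon from glucose into palmitate in the cytosol. Citrate leaves the mitochondrion through the citrate carrier SLC25A1, ATP-citrate lyase (ACLY) splits it to acetyl-CoA, acetyl-CoA carboxylase (ACACA, ACACB) makes malonyl-CoA, and fatty acid synthase (FASN) builds the chain with electrons from NADPH. The pathway is known for its high activity in liver and fat tissue and in dividing cells, and its genes are classical targets of the sterol regulatory element-binding proteins (SREBPs).

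The genes described here were those of the deposited table whose symbol was *Acaca*, *Acacb*, *Acly*, *Fasn*, *Acss2*, *Slc25a1*, *Thrsp*, *Mlxipl*, *Mid1ip1* or *Me1*. Of these 10 symbols, 8 were found among the 19078 genes of the table. *Thrsp*, an activator of lipogenic genes, and *Mlxipl*, the carbohydrate response factor ChREBP, were not found under these or older symbols and were not analysed here.

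The libraries, 3 of *Ms4a15* OE cells and 3 of control cells, held RNA of immortalized mouse fibroblasts (MF). By the study's methods, all cells descend from mouse embryonic fibroblasts with a conditional *Gpx4* allele and Cre-ERt2. *Ms4a15* OE cells are a pool of cells in which a CRISPR activation system and a lentiviral guide raise transcription of *Ms4a15* from its own locus. Control cells are labelled wild type, and the methods describe them as carrying an empty lentivirus. Selected pools are not clones, and nothing in the labels says that the 3 libraries of a group came from separate cultures.

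The guide is shown because it is what sets *Ms4a15* OE cells apart from control cells by design. It matched the RefSeq promoter window of *Ms4a15* on chromosome 19 (GRCm38.p6), chr19:10993361-10993380 on the reverse strand, from 130 to 111 bases before the annotated start, and it matched no other of the 32851 windows searched. The guide is printed in lower case and the adjoining PAM, read from the genome, in capitals.
Ms4a15 OE guide: aaagactgaagcaagggactGGG

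Each value below is a level, not a difference between groups. The values used give 1 mean per gene over all 6 libraries, of counts divided by the depth of each library; its unit is the normalized count. A mean over both groups carries no spread between libraries and does not show whether a transcript was equally abundant in *Ms4a15* OE and control cells. The table also holds the authors' own comparison of the groups, which was not used here. No comparison of the groups is given, and no SD or p-value. The means of all genes had a median of 237 normalized counts. The lowest value, 0.147, is that of 1 read in a single library. *Ms4a15* itself had a mean of 637.5 and *Gpx4*, the glutathione peroxidase that protects lipids, one of 2520 normalized counts.

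By mean count, the fatty acid synthesis genes ranged from well above to near the median gene. Together the 8 genes held 62994 normalized counts, or 0.154% of the sum over all genes. *Fasn* alone made up 44.5% of this total, and *Fasn*, *Acly*, *Acaca* and *Me1* together 94.0%. These are shares of counts not divided by transcript length, and long transcripts collect more reads. Of the 8 genes, 6 reached 1000 normalized counts. The other 2, *Acacb* and *Acss2*, lay close to the median count of all genes. Per kilobase they were below the median, at 40.3 and 80.3 against 227.

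**Figure D1:**
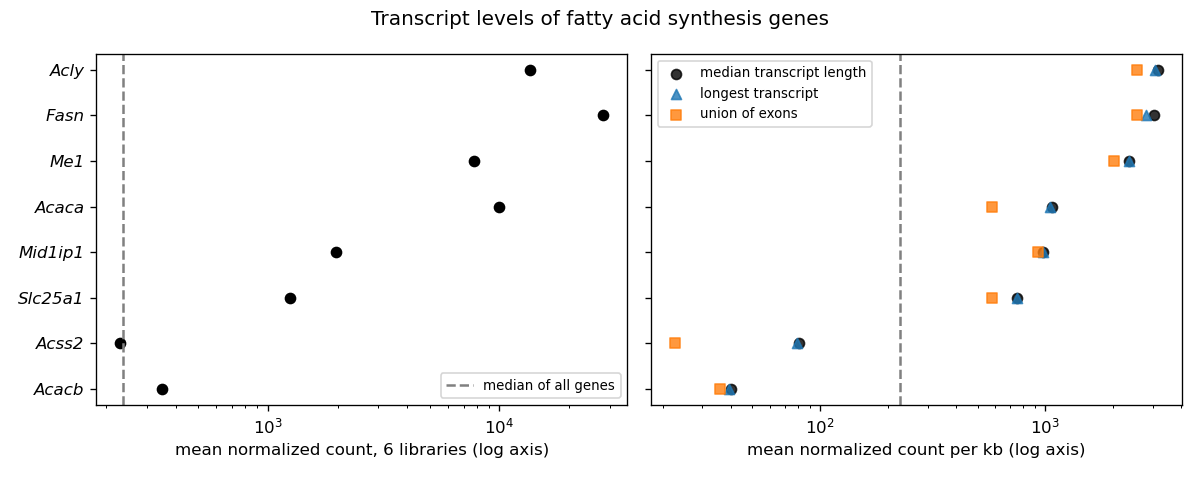
Mean normalized count of each gene over the 6 libraries (left, log axis). The right panel (log axis) gives the same mean per kilobase for 3 ways of taking transcript length. The dashed line on the left is the median of all genes. That on the right is the median of all genes with a length, by the median transcript length only. There are no error bars because 1 mean per gene was used. *Acly*, *Fasn* and *Me1* lead per kilobase, and *Acss2* and *Acacb* stand apart on the low side.

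*Slc25a1*, which exports citrate from mitochondria, had a mean of 1252 normalized counts, above 68.2% of the genes in the table. It lies on chromosome 16 of GRCm38, chr16:17925223-17928219, on the reverse strand. *Acly*, which splits the exported citrate, had a mean of 13521, above 97.3% of all genes (chr11:100476353-100528000, reverse strand). The transcripts for citrate export and citrate cleavage thus had different mean counts. Longer transcripts collect more reads, so genes were compared per kilobase of transcript. The percents of genes below a mean rank counts that were not divided by length. Per kilobase, *Acly* stood at 3161 and *Slc25a1* at 751, a ratio of 4.21, which was 4.07 with the longest transcript and 4.43 with the union of exons.

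*Acss2* makes acetyl-CoA from acetate in the cytosol and nucleus. Its mean was 230.9 normalized counts, above 49.8% of all genes (chr2:155517948-155585724, forward strand). Of both cytosolic routes to acetyl-CoA, the citrate route had the more abundant transcript: *Acly* per kilobase was 39.4 times *Acss2*. This ratio depended on length and was 112.7 with the union of exons, since the exons of *Acss2* add up to 10163 bases in the annotation against 2876 for its median transcript. Between 1228 and 1575 reads lay behind the mean of *Acss2*, the lowest of the 8, which limits counting error to 2.85% of the mean or less. Counting error leaves out the spread between libraries.

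The carboxylases are paralogs that stood far apart. *Acaca*, which encodes the cytosolic carboxylase that feeds fatty acid synthesis, had a mean of 9935 normalized counts, above 95.8% of all genes (chr11:84129672-84401651, forward strand). *Acacb*, whose product sits at the mitochondrial outer membrane and restrains fatty acid oxidation, had a mean of 347.8, above 52.8% (chr5:114146535-114250761, forward strand). The transcripts are of similar length, 9270 and 8635 bases, and per kilobase *Acaca* at 1072 was 26.6 times *Acacb* at 40.3. The ratio was 26.4 with the longest transcript and 16.1 with the union of exons, and it was 272.6 where incomplete transcript models were kept. Reads shared between these paralogs were not examined.

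*Fasn*, the multienzyme that makes palmitate, had the highest mean of the 8 genes. At 28002 normalized counts it ranked 171 in the table, above 99.1% of all genes, with between 148943 and 190983 reads behind it (chr11:120805846-120824547, reverse strand). Its transcript is long, 9192 bases, and per kilobase it came to 3046, level with *Acly*: *Acly* was 1.04 times *Fasn*, 1.10 times with the longest transcript and 1.00 times with the union of exons. The order of *Acly* and *Fasn* is therefore not settled by these values. Per kilobase *Fasn* was 2.84 times *Acaca*, and 2.67 and 4.40 times with the longest transcript and the union of exons. The direction turned, to 0.301, where incomplete transcript models were kept, the length definition first used, which gives *Acaca* a median length of 889 bases. *Acly*, *Fasn* and *Acaca*, 3 successive steps of the route, all lie on chromosome 11.

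*Me1*, the cytosolic malic enzyme, returns pyruvate and NADPH from malate. Its mean was 7734 normalized counts, above 94.1% of all genes (chr9:86581371-86695953, reverse strand), and 2351 per kilobase. *Mid1ip1*, a paralog of *Thrsp* whose product promotes polymerization and activity of acetyl-CoA carboxylase, had a mean of 1973 normalized counts, above 75.6% (chrX:10715013-10719690, forward strand), and 976 per kilobase. It was thus the measured member of this pair of regulators.

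In order of the level per kilobase, the genes ran *Acly*, *Fasn*, *Me1*, *Acaca*, *Mid1ip1*, *Slc25a1*, *Acss2* and *Acacb*. Neighbours in this order were mostly close. *Fasn* was 1.30 times *Me1*, *Acaca* 1.10 times *Mid1ip1* and *Mid1ip1* 1.30 times *Slc25a1*. The wide steps were those from *Me1* to *Acaca*, 2.19 times, and from *Slc25a1* to *Acss2*, 9.36 times, which were 3.45 and 25.5 with the union of exons. *Acss2* was 1.99 times *Acacb*. With the union of exons *Acaca* and *Mid1ip1* changed places, at 582 and 927 per kilobase, and so did *Acss2* and *Acacb*, at 22.7 and 36.1. With incomplete transcript models kept, *Acaca* moved to the first place at 11175 per kilobase, *Me1* to *Acaca* had a ratio of 0.210, and *Fasn* stood above *Acly*. The place of *Acaca* in this order thus rests on the length definition. Whether any neighbours differ beyond the spread between libraries cannot be given from 1 mean per gene.

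**Figure D2:**
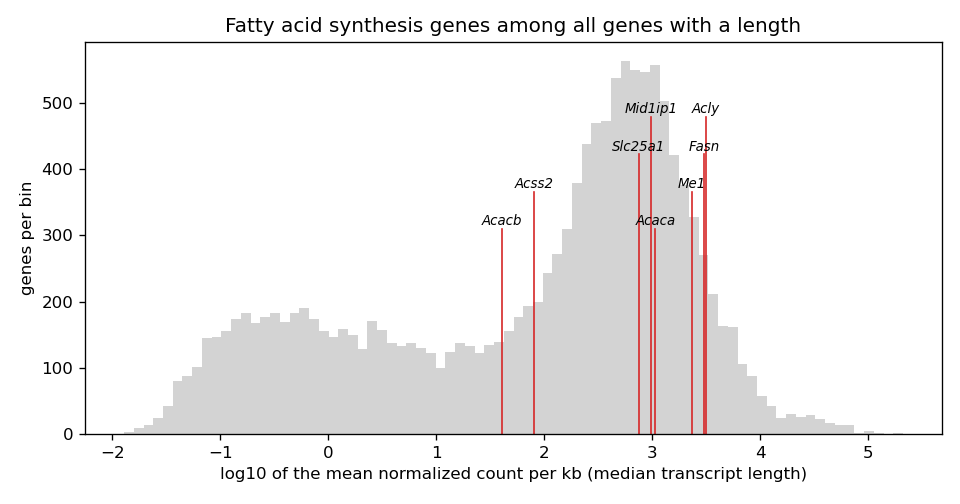
Histogram of the log10 mean normalized count per kilobase (x axis) over the 13999 genes with a transcript length, with the number of genes per bin on the y axis; red lines mark the 8 fatty acid synthesis genes and their heights carry no value. Of the 8 lines, 6 fall within or to the right of the main peak of expressed genes and those of *Acss2* and *Acacb* on its left flank.

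Among the 13999 genes with a length, the median was 227 per kilobase and the upper quartile began at 941. *Acly*, *Fasn*, *Me1*, *Acaca* and *Mid1ip1* lay above this quartile, *Slc25a1* between it and the median, and *Acss2* and *Acacb* below the median. With the union of exons *Slc25a1* also lay in the upper quartile, above 76.1% of genes. The median of the 8 genes was 1024 per kilobase. Ranked per kilobase, the percent of genes below was 92.4 for *Acly*, 92.1 for *Fasn*, 89.3 for *Me1* and 77.5 for *Acaca*. It was 75.6 for *Mid1ip1*, 70.8 for *Slc25a1*, 39.7 for *Acss2* and 35.7 for *Acacb*.

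The rest of the pathway was described from fixed lists. Of 14 regulators of lipogenic transcription, all were in the table, and 12 reached 1000 normalized counts. *Srebf2*, the SREBP best known for sterol synthesis genes, led with 2216 per kilobase, and *Srebf1*, the one best known for fatty acid synthesis genes, stood at 459. *Nr1h3*, the liver X receptor alpha, was lowest at 7.29 per kilobase, whereas its paralog *Nr1h2* stood at 589. *Mlx* and *Mlxip*, a partner and a paralog of the unlisted *Mlxipl*, stood at 1180 and 462 per kilobase.

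Of 10 genes of citrate and acetyl-CoA supply, 8 were found, *Mpc1* and *Mpc2* under their older symbols *Brp44l* and *Brp44*. *Cs*, citrate synthase, stood at 8877 per kilobase and *Pdk1*, which inhibits pyruvate dehydrogenase, was lowest at 536. With the union of exons *Mpc2* at 113 and *Mpc1* at 311 lay below *Pdk1* at 358, so the lowest place rests on the length definition. *Acss1* and *Acss3*, relatives of *Acss2*, were not analysed here.

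In a list of 10 genes related to NADPH supply, *Pgd* and *G6pdx* led with 6248 and 5156 per kilobase, both above *Me1* at 2351. They encode the dehydrogenases of the pentose phosphate pathway. With the union of exons *Pgd* was at 2149 and *G6pdx* at 4439, against 2010 for *Me1*. *G6pdx* was also the higher of the pair, at 7008, where incomplete transcript models were kept, so their order rests on the length definition. *Me2*, a mitochondrial malic enzyme, stood at 2199 and its relative *Me3* at 12.2. *Aldh1l1* was lowest at 1.83 per kilobase, while *Aldh1l2* stood at 1441.

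Among 13 genes that act on the carboxylases and fatty acid synthase, levels were lower, with a median of 111 per kilobase. *Prkaa1*, a catalytic subunit of the kinase AMPK that phosphorylates acetyl-CoA carboxylase, was highest at 2321, and its paralog *Prkaa2* stood at 85.7. *Hlcs*, which attaches biotin to the carboxylases, stood at 72.2 and *Aasdhppt*, which loads the phosphopantetheine arm onto fatty acid synthase, at 717. *Mlycd*, which destroys malonyl-CoA, had a mean of only 4.94 normalized counts. *Olah*, a thioesterase that ends chains early in mammary gland, was listed at 0.163, or 1 read in 1 library. The mitochondrial fatty acid synthesis genes, 5 of 6 found, had a median of 323 per kilobase. They ran from *Cbr4* at 80.3 to *Ndufab1*, the mitochondrial acyl carrier protein, at 1049. The highest place rests on the length definition. *Mecr* of the same list, at 974, stood above *Ndufab1* with the longest transcript, 974 against 738. With the union of exons it was 428 against 373.

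Beyond palmitate, 12 genes of desaturation, elongation and activation were all listed. *Scd2*, a stearoyl-CoA desaturase, was highest at 8844 per kilobase with a mean of 48242 normalized counts, above *Fasn* on both scales. *Scd1* stood at 1695 per kilobase, *Scd3* at 9.73 and *Scd4* at 3.30. *Elovl6*, which extends palmitate to stearate, stood at 147 per kilobase, below *Elovl1* at 3883 and *Elovl5* at 1605. *Acsl6*, a long-chain acyl-CoA synthetase, was lowest at 0.132 per kilobase.

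**Figure D3:**
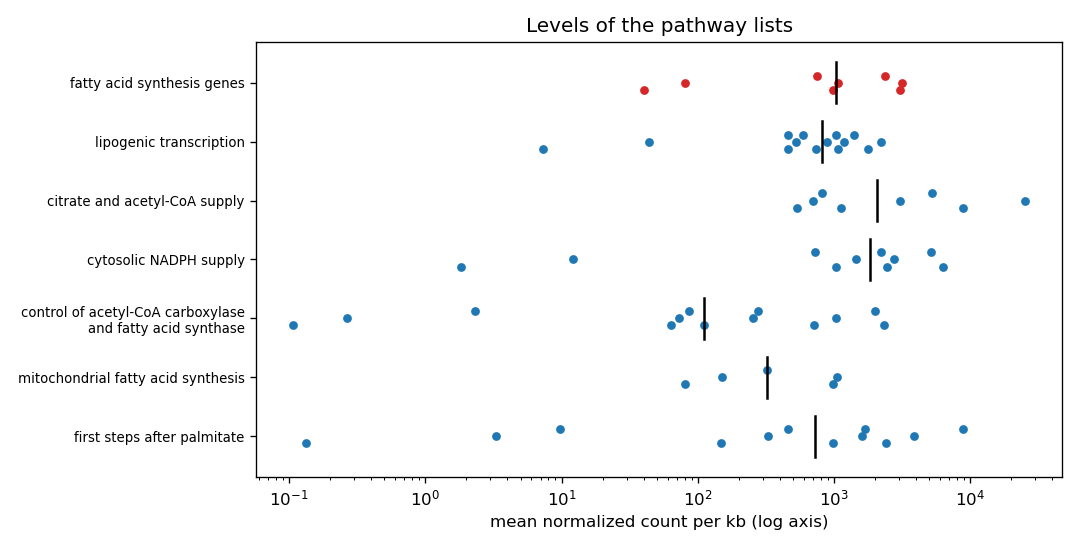
Mean normalized count per kilobase (log x axis) of every gene with a value in the fatty acid synthesis group (red) and in each of the 6 pathway lists (blue, one row a list); a point is a gene, its small vertical offset carries no value, and the black bar is the median of the row. The median is 1024 per kilobase for the 8 synthesis genes, highest for citrate and acetyl-CoA supply at 2075 and lowest for the carboxylase and synthase control list at 111.

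The labelled cell type was checked with marker genes. Of 11 fibroblast markers, 8 reached 1000 normalized counts, *Col1a2* at 135155 and *Vim* at 115135 among them. The others were *Pdgfra* at 277.5, *Dcn* at 12.1 and *Lum* at 0.675. Markers of the lipogenic tissues were low. The adipocyte markers *Adipoq*, *Cfd*, *Fabp4* and *Plin1* had means of 0.364, 0.163, 8.38 and 10.5 normalized counts, and *Lep* and *Retn* were not listed. The hepatocyte markers *Alb* and *Apoa1* were at 0.163 and 0.690 and *Apob* at 63.9, and *Ttr*, *Serpina1a* and *Fgb* were not listed. The 6 epithelial markers summed to 15.0 normalized counts and the 4 endothelial ones to 125.2, of which *Cdh5* held 106.5. Of the macrophage markers, *Ptprc* was at 11.1, *Csf1r* at 13.2, *Cd68* at 164.2 and *Cd14* at 374.0, and *Adgre1* was not listed.

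The promoter windows of the 8 genes were searched for short motifs on both strands. A window holds 300 bases, 250 before and 50 after an annotated RefSeq start (GRCm38.p6), and the 8 genes have 9 windows because *Me1* has 2 starts. The CCAAT box, spelled CCAAT and bound by NF-Y, a partner of SREBPs, occurred in 6 of 9 windows, and in 37.4% of all 32851 windows. It was found for *Acacb*, *Acly*, *Acss2*, *Fasn*, *Me1* and *Slc25a1*. For *Acly* the only match lay after the start, at bases 38 to 42, and for *Me1* the match lay at 1 of its 2 starts. The GC box, spelled GGGCGG, occurred in 5 of 9 windows and in 35.7% of all. The E-box CACGTG occurred in 1 window, that of *Slc25a1*, and in 7.15% of all. The sterol regulatory element, spelled TCACNCCAC, occurred in 0 of 9 windows and in 1.24% of all, which says only that these letters are not in these windows. Motif matches describe sequence and were not related to the levels. The 250 bases before the start of *Fasn*, the gene with the highest mean, are printed because they hold 3 CCAAT matches, more than any other of the 9 windows, a pair of them overlapping. They lie at chr11:120824548-120824797 on the reverse strand, and capitals mark CCAAT on either strand.
Fasn upstream: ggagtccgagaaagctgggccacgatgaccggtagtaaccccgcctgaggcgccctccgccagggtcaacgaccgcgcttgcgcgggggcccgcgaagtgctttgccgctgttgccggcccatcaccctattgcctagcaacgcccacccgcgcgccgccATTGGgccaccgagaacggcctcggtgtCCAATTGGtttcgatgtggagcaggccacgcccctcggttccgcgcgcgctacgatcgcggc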

How the data were processed

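Poly(A)-selected RNA of 6 libraries was sequenced. By the study's methods, the authors aligned reads with STAR to mm10 with UCSC knownGene models, counted them with HTSeq-count and scaled them with DESeq2, while the submitters' processing notes name TopHat, Cufflinks and Cuffdiff as well. The authors deposited 1 signal value per gene, an average taken across both groups of counts divided by size factors. The other columns hold the authors' own comparison of *Ms4a15* OE with control (log2 fold change, its standard error, p-values and direction) and were not used. No value of a single library was used, and the planned tests were therefore not run.

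The relative depths of the libraries, which cannot be assigned to samples, came from the 6 most frequent values of the column, each taken as 1 read in 1 library. The size factors ran from 0.887 to 1.14. All 2388 means up to 0.6 were sums of whole reads at these depths, with a tolerance of 2e-09. The procedure was tested on simulated data. These depths bound the reads behind a mean. Total reads per library are not known, and bounds cover counting error only.

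Transcript lengths came from GENCODE (GRCm38, the same assembly as mm10), as the median over the complete protein-coding models of a gene, for 13999 genes of the table matched by symbol (73.4%). Models with a missing start or end were left out after the values were seen, because they gave *Acaca* a median length of 889 bases. Alternatives were the longest transcript, the union of exons, incomplete models kept, ranking among the 12914 genes that reached 10 normalized counts, and leaving the 10 highest genes out of the sum. Promoter and guide positions came from RefSeq windows, in which all 8 genes were found.

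The members and lists were chosen with earlier results of these data known. Named genes are all members, *Ms4a15*, the highest and lowest gene of each pathway list, and genes a result turns on. Highest and lowest refer to the median transcript length, and other length definitions change some of these places. The values of 1 list gene are not reported here. Of other list genes, paralogs and genes of a stated role were named after their values were seen. Computations used Python 3.11.15, numpy 2.4.6 and pandas 2.3.3, with figures in matplotlib 3.10.9.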

Additional observations from a re-analysis of the deposited data

How the results depend on the processing

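No paired analysis was possible because the values used are means over all 6 libraries; leaving out a replicate, count tests and their alternatives were not run for the same reason. With the longest transcript in place of the median one, levels per kilobase were 3055 for *Acly*, 2786 for *Fasn* and 1044 for *Acaca*, and the order of the 8 genes was the same. With the union of exons, which was chosen after seeing the data, they were 2561 for *Acly*, 2558 for *Fasn*, 2010 for *Me1*, 582 for *Acaca*, 927 for *Mid1ip1*, 578 for *Slc25a1*, 22.7 for *Acss2* and 36.1 for *Acacb*. With incomplete transcript models kept, the definition first used, they were 11175 for *Acaca*, which put it first, 3360 for *Fasn*, 1600 for *Mid1ip1*, 1063 for *Slc25a1* and 92.0 for *Acss2*, and *Fasn* to *Acaca* fell to a ratio of 0.301. Among genes at 10 or more normalized counts, the percent of genes below was 96.0 for *Acly*, 98.7 for *Fasn*, 91.3 for *Me1*, 93.8 for *Acaca*, 63.9 for *Mid1ip1*, 53.1 for *Slc25a1*, 25.9 for *Acss2* and 30.3 for *Acacb*. Without the 10 highest genes, which hold 5.01% of the sum, the percent share of the sum was 0.0347 for *Acly*, 0.0719 for *Fasn*, 0.0199 for *Me1*, 0.0255 for *Acaca*, 0.00507 for *Mid1ip1*, 0.00321 for *Slc25a1* and 0.000893 for *Acacb*. Depth limits these levels little, since counting error was at most 2.85% of a mean. The spread between libraries is not known.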
